A study of Mus musculus and Rattus norvegicus with 2 samples.

Results

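SNORD58 is a family of C/D box small nucleolar RNAs (snoRNAs). Its reads were chosen by the name of the matched Rfam entry, and the family was picked for its high count in the mouse library and its lack of rat entries, so both of those values are a description. The rule found 4021449 reads in 1937 distinct sequences among 11760708 listed reads in 914516 distinct sequences of mouse, and 0 reads among 14652889 in rat. Of the 32 C/D box families with at least 1000 mouse reads, SNORD58 itself included, 53.1% had no rat read listed. Both libraries held small RNA of purified sperm from the caput of the epididymis, the first segment of the tube where sperm acquire motility. The mouse library came from C57BL/6 animals of 2 months and the rat library from Sprague Dawley young adults of 450 g, with 1 library per species, a selected RNA fraction of 18 to 45 nt and no treatment named in the labels. With 1 library each, no comparison has a replicate check, and every interval covers counting error only.

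C/D box snoRNAs guide the methylation of ribose groups in other RNAs, mostly ribosomal RNA, by base pairing. The C box near their 5′ end and the D box near their 3′ end are brought together by a short stem of the terminal bases and are bound by Snu13, Nop56, Nop58 and the methyltransferase fibrillarin. Most are cut from the introns of genes for ribosomal proteins or translation factors, and exonucleases trim them to the ends that the proteins cover. SNORD58 is known as a guide for the large-subunit ribosomal RNA. Shorter fragments of snoRNAs are common in small RNA libraries.

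Markers of sperm and of other cells were both present among mouse mRNA entries. Sperm genes (7 of 7 with reads, 2 to 172 each) summed to 373 reads, whereas genes of the caput epithelium (7 of 7, 444 to 13800 each) summed to 21614. Leukocyte genes (3 of 3) summed to 298 and muscle genes (3 of 3) to 733, and no marker stood at 0. The part of RNA from other cells in the SNORD58 count was not tested, and fewer cells of a type and less RNA per cell cannot be told apart. No such count was made for rat. Of the mouse listed reads, 7.94% were longer than 45 nt, the upper bound of the selected fraction, and of the rat reads 2.74%.

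The mouse reads came from 3 gene copies that lie in 3 introns of Rpl17, the gene of a ribosomal protein of the large subunit, on the plus strand of chromosome 18 (GENCODE vM21, GRCm38). Rpl17 spans bases 74998558 to 75003381. Snord58b (ENSMUSG00000064871.1) has 66 nt, at bases 75001058 to 75001123 in an intron of 647 nt. Gm23301 (ENSMUSG00000064647.1) has 65 nt, at bases 75001455 to 75001519 in an intron of 275 nt. Gm26202 (ENSMUSG00000064844.1) has 65 nt, at bases 75001880 to 75001944 in an intron of 223 nt. Each copy lay in an intron, and in no exon, of both annotated coding transcripts of Rpl17. The copies share a run of 22 identical bases, which covers bases 14 to 35 of Gm26202 and Gm23301 and bases 15 to 36 of Snord58b, so that base numbers of Snord58b run 1 higher there.

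One copy supplied nearly all reads. Gm26202 had 4011759 reads, 99.8% of the family and 34.1% of the listed mouse reads. Over all numbered mouse reads, listed or not, the whole family came to between 15.9% and 22.0%. Gm23301 had 8809 reads (0.219%, 95% Clopper-Pearson interval 0.215 to 0.224), and Snord58b had 881 (0.0219%, 0.0205 to 0.0234). Gm26202 and Gm23301 differ at 3 of the first 40 bases, T1C, T5A and A36T (the base of Gm26202, its position from the 5′ end, the base of Gm23301), and at 8 of the last 25. Only 9 reads of Gm26202, 33 of Gm23301 and 0 of Snord58b could be placed on another copy with as few mismatches. All 1937 sequences could be placed on their copy with at most 2 mismatches, and all were sense. Reads without a mismatch made up 98.8% in Gm26202, 96.8% in Gm23301 and 98.5% in Snord58b.

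The leading form ran from base 1 to base 40 of Gm26202 and had 3708397 reads, 92.2% of the family. The form from base 2 to base 40 had 192797 reads. The next forms of Gm26202 were near full length, from base 1 to base 63 with 17629 reads, to base 62 with 13645 and to base 64 with 9165. A short form from base 1 to base 29 had 11441 reads, and the form from base 1 to base 39 had 3939. The full 65 nt of Gm26202 were read only 158 times. Of all SNORD58 reads, 94.97% began at base 1 (94.94 to 94.99). This share was 72.2% over distinct sequences and 35.3% without the leading sequence, where the form from base 2 to base 40 is the largest left. Among reads that did not end at base 40 or the base aligned to it, the share was 92.05% in Gm26202, 93.3% in Gm23301 and 67.6% in Snord58b. In Gm26202 99.96% began at base 1 or 2. At the other end, 98.2% of SNORD58 reads ended at base 40 or the base aligned to it, compared with 76.7% without the leading sequence and 43.5% over distinct sequences. The plot of starts and ends shows that the 3 copies share the start at base 1 and differ in the end.

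**Figure D1:**
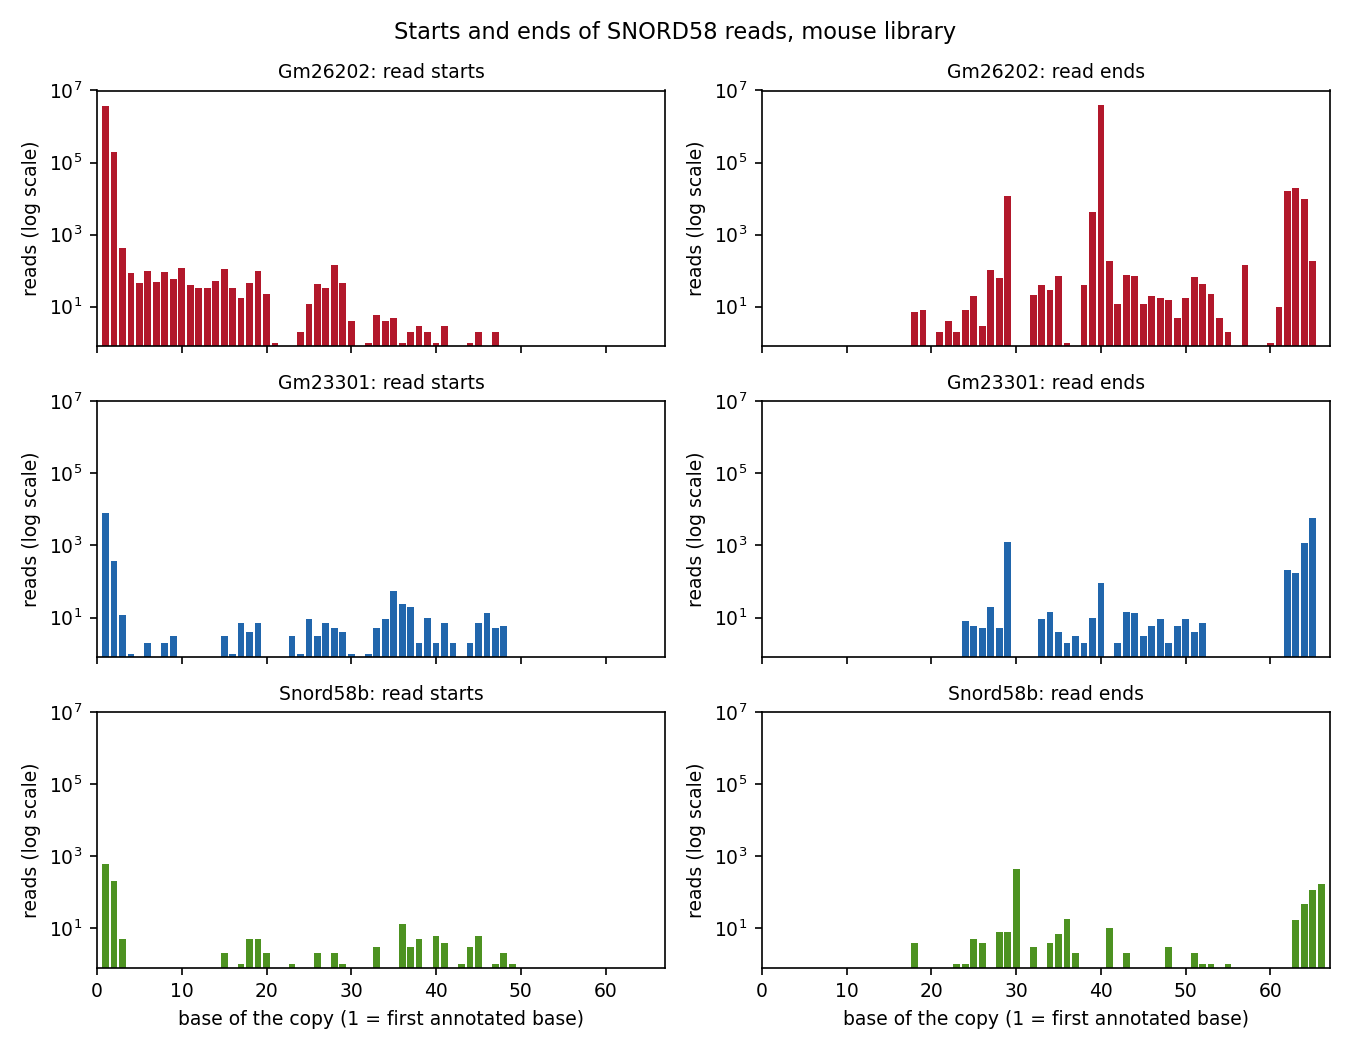
Number of reads (log scale) that start (left) and end (right) at each base of the 3 SNORD58 copies in the mouse library. Ends at base 40 are the most frequent in Gm26202 (3948398 reads) and a small peak in Gm23301 (88 reads), whereas ends at base 29 (base 30 in Snord58b) and in the last 4 bases are seen in all 3 copies.

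The other copies were read mostly as other forms. In Gm23301 the full 65 nt led with 5440 reads, followed by the form from base 1 to base 29 with 1125 and the form to base 64 with 988. Near full-length reads, which start at base 1 or 2 and end in the last 4 bases, were 80.7% of Gm23301 (79.9 to 81.5), 31.4% of Snord58b (28.4 to 34.6) and 1.13% of Gm26202 (1.12 to 1.14). In Snord58b the form from base 1 to base 30 led with 275 reads, followed by the form from base 2 to base 30 with 170 and the full 66 nt with 132. Ends at the base aligned to 40 were 98.4% of Gm26202, 0.999% of Gm23301 (0.802 to 1.23) and 1.14% of Snord58b (0.546 to 2.08).

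Apart from the 40-nt end, Gm26202 and Gm23301 were closer in their forms, while Snord58b had more of the short end. Of the 63361 Gm26202 reads with another end, 71.8% were near full length and 18.9% ended at base 29. In Gm23301 these shares of the reads with another end were 81.5% and 14.0%, and in Snord58b 31.8% and 51.4%. The excess of Gm26202 over Gm23301 was 6.40-fold in near full-length reads (6.24 to 6.57), with 45515 against 7109. It was 9.81-fold in reads ending at base 29 (9.25 to 10.4), with 11963 against 1219. In reads ending at base 40 it was 44868-fold (36418 to 55943), with 3948398 against 88. Only 39 of these 88 Gm23301 reads were exact, so the ratio also counts reads with mismatches, and its interval does not cover their assignment. Snord58b had 448 reads with the short end, 277 near full length and 10 with the end aligned to base 40, the fewest of the copies in each form.

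**Figure D2:**
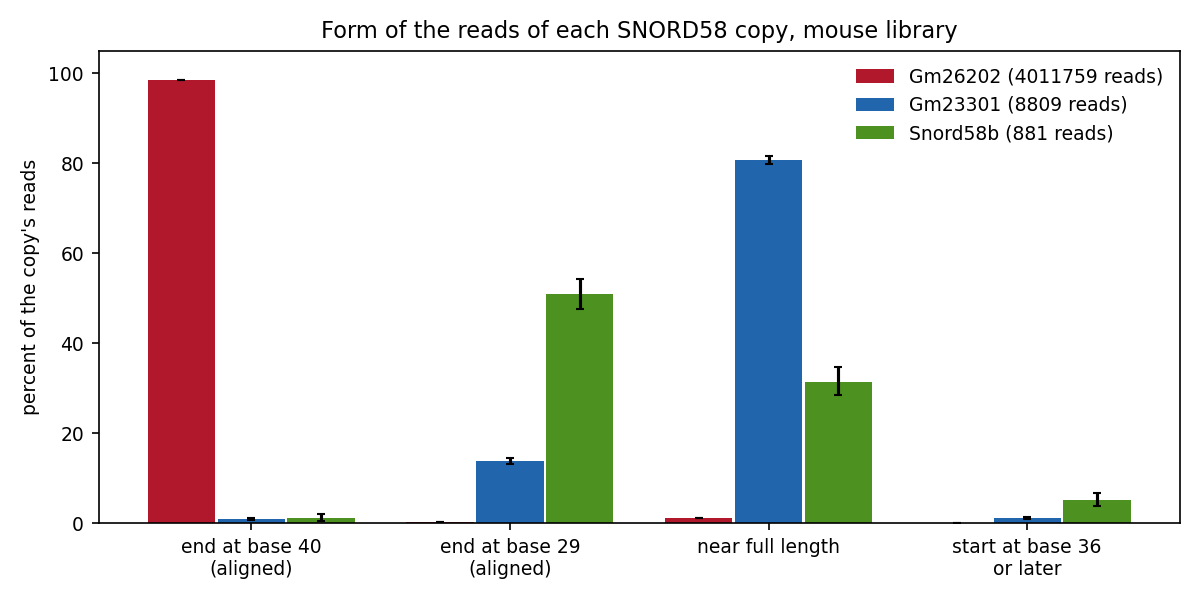
Percent of the reads of each SNORD58 copy in 4 forms in the mouse library, with exact 95% intervals that cover counting error only. Gm26202 has 98.4% of its reads ending at base 40, Gm23301 has 80.7% near full length, and Snord58b has 50.9% ending at the base aligned to 29.

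Few reads came from the 3′ remainder of the 40-nt form. Whether reads with the 40-nt end are full-length molecules whose sequence was shortened in processing was not tested, and values that bear on it follow with the letters after the ends. Bases 41 to 65 of Gm26202 would make a fragment of 25 nt, inside the selected size range. Only 3 reads of Gm26202 began at base 41, and 17 reads (0.000424%) began at base 36 or later. In Gm23301 100 reads (1.14%) began at base 36 or later, led by the form from base 36 to base 64 with 17 reads, and in Snord58b 45 reads did (5.11%). Just outside this cut, 53 reads of Gm23301 began at base 35. Its forms from base 35 to bases 65 and 64 had 24 and 20 reads, more than that leading form. In Gm26202 the largest form starting after base 2 ran from base 3 to base 40, with 377 reads. The forms from bases 15, 10, 6 and 8 to base 40 followed with 107, 106, 90 and 83. Forms starting at base 28 had other ends, with 68 reads to base 64, 54 to base 63 and 22 to base 62.

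Near full-length reads end, by their definition, in the last 4 bases of a copy, which lie 2 to 5 bases beyond the D box. The D box core CTGA was found once in each copy, at bases 57 to 60 of Gm26202 and Gm23301 and bases 58 to 61 of Snord58b. It occurs on the sense strand of 90% of the 50 GENCODE snoRNA transcripts of 60 to 70 nt. The C box core TGATGA, which does not overlap it, was found at bases 7 to 12 of Gm26202 and Gm23301 and not in Snord58b, and occurs in 56% of those transcripts. Among exact near full-length reads from base 1, the most frequent end in Gm26202 lay 3 bases after the D box (17629 reads), ahead of 2 bases (13645) and 4 bases (9165). In Gm23301 (5440) and Snord58b (132) it lay 5 bases after the D box. The first 5 bases of Gm26202 can pair with the 5 bases that end at base 64, compared with 4 such pairs in each of the other copies.

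Reads shortened at the 3′ end were also more often shortened by 1 base at the 5′ end, in all 3 copies. Among exact reads of Gm23301 that begin at base 1 or 2, the share beginning at base 2 was 0.929% for the end 5 bases after the D box (0.692 to 1.22). It was 6.97% for 4 bases, 27.2% for 3 bases and 40.6% for 2 bases (33.7 to 47.8). In Snord58b the same shares were 2.22%, 16.5%, 21.4% and 41.2%, on far fewer reads. In Gm26202 they were 2.47%, 5.20%, 8.40% and 10.8% (10.3 to 11.3). The 40-nt end of Gm26202 had 4.94% and the end at base 29 had 3.44%, whereas the short end of Snord58b had 38.2% (33.7 to 42.9). Intervals of neighbouring ends overlapped in Gm26202 at 5 and 4 bases, in Gm23301 at 3 and 2 bases and in Snord58b from 4 bases down. There is no replicate to test the order.

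**Figure D3:**
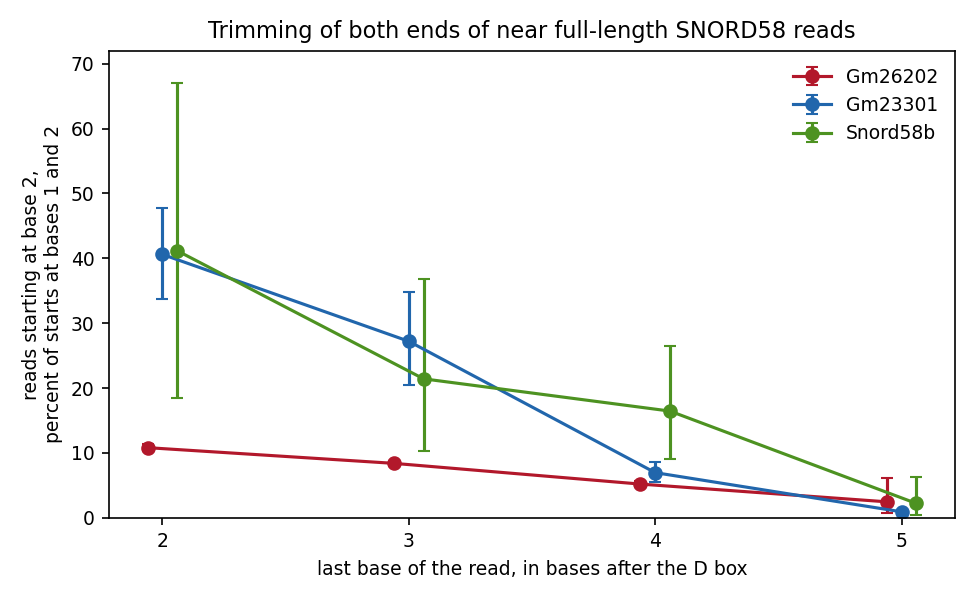
Share of exact near full-length reads that begin at base 2 rather than base 1, by the number of bases between the D box and the end of the read, for the 3 SNORD58 copies in the mouse library. Bars are exact 95% intervals of counting error, and the share is highest at 2 bases after the D box in each copy, 10.8% in Gm26202, 40.6% in Gm23301 and 41.2% in Snord58b.

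The letters that follow both internal ends resembled the motif TGGAAT, which opens the 3′ adapter of a widely used Illumina small RNA kit. The sources used here do not name the adapter of these libraries or how it was removed. After base 40 of Gm26202, 5 of 6 letters matched the motif, and after base 29 also 5 of 6. Among possible ends from base 18 on, these were the only 2 places in Gm26202 with as many matches. Gm23301 and Snord58b matched 5 letters after base 29 or 30 and only 4 after the base aligned to 40. Of the reads with at least 18 nt up to base 40, 98.8% ended there in Gm26202, 1.20% in Gm23301 and 3.17% at base 41 in Snord58b. At base 29, where all 3 copies are followed by the same 6 letters, 0.298% of reads ended in Gm26202, 14.3% in Gm23301 and 57.4% in Snord58b.

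A similar count was made for 5695 distinct sequences on the 7 epithelial marker mRNAs of mouse, a count chosen after the ends had been seen. It counts distinct sequences, whereas the SNORD58 shares above count reads, so their sizes cannot be compared directly. A sequence with at least 18 nt up to a given base ended at that base in 5.01% of cases. Before 6 matching letters it ended in 51 of 73 cases (69.9%, 58.0 to 80.1), before 5 in 97 of 688 (14.1%, 11.6 to 16.9), and before 4 in 7.68%. With 0 to 3 matching letters the share was 3.83% to 5.12%. Sequences that overlap the same site of an mRNA are counted separately, so these cases are not independent. The intervals take no account of this, and the number of distinct sites is not given. The 6 letters that follow base 40 of Gm26202 were reached 54 times in these mRNAs, with 15 ends before them. Those of Gm23301 were reached 52 times with 1 end, and those after base 29 were reached 24 times with 9 ends. Among 12 other snoRNA entries whose most frequent end lay over 6 bases before the gene's end, 10 matched at most 3 letters. These 10 include SNORD71, SNORD12 and SNORD121A, which ended just after a CTGA and only 7, 7 and 9 bases before the gene's end. SNORD97 matched 6, with 76.3% of reads ending there, and a SNORD24 entry matched 4. The part of adapter removal in the ends at bases 29 and 40, and so in the shares of short and near full-length reads, was not tested.

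Substitutions in the 40-nt form were rare. All 120 possible single substitutions were listed, with 42761 reads in all, or 0.285 substitutions per 1000 bases (0.282 to 0.288). The same rate in the 10 most abundant other mouse sequences was higher in all 10, from 0.518 to 9.81, and in rat it was 0.0263 to 2.85, higher in 9 of 10. Those are mostly tRNA and miRNA sequences, and related sequences that differ by 1 base count as substitutions there. By the median base, the 40-nt form had 0.195 substituted reads per 1000 reads, and the 10 mouse sequences had 0.181 to 0.483. The rat sequence with the lowest rate had 0 at the median base. Forms with no entry within 2 mismatches are not listed, and their part in that low rate was not tested.

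Substitutions at 2 of the bases stood above the rest of the 40-nt form, as shown in the plot of substitutions by base. Base 40 had 1.54 per 1000 reads and base 17 had 1.02, followed by base 33 with 0.540, base 30 with 0.537 and base 4 with 0.519. At base 40, the substitution G40A (reference base, position from the 5′ end, read base) had 5356 reads, compared with 225 and 120 for the other 2 bases. The same letters can be read as bases 1 to 39 followed by an added A, and the form from base 1 to base 39 without an added base had 3939 reads. The last base was substituted more often in 6 of the 10 other abundant mouse sequences, which ranged from 0.379 to 6.23 per 1000 reads. At base 17, C17G had 2505 reads and C17A 968. T7C with 947 and G3A with 923 followed, and the median substitution had 234 reads. An extra base after base 40 was nearly absent, with 79 reads of the genomic base and 35 of an added G.

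**Figure D4:**
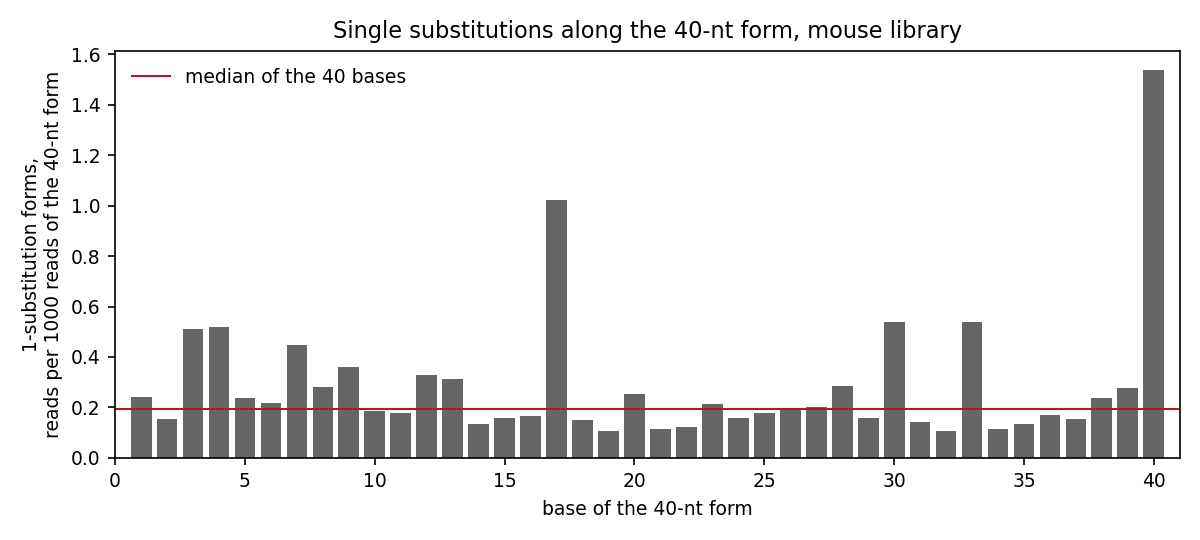
Reads of the 40-nt form with a single substitution at each of its 40 bases, per 1000 reads of the form without a mismatch, in the mouse library. Base 40 (1.54) and base 17 (1.02) stand above the other bases, whose median line lies at 0.195.

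SNORD58 exceeded the other C/D box families of the mouse library in its count and in the share of its leading sequence, and few of them had fewer long reads. It had 101.7-fold more reads than SNORD41, the next family, with 39550. Its leading sequence took 92.2% of its reads, above the 31 other families with at least 1000 mouse reads, which ranged from 13.4% to 83.4% with a median of 45.1%. Reads longer than 45 nt were 1.33% of SNORD58, compared with a median of 72.5% in those families, of which 2 were lower. Of these 31 families, 1 had a leading sequence of 39 to 41 nt. The families share the library and its depth, so these values carry no test.

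The leading sequences of the 3 next families in count were nearly full length, and they are shown for the layout that near full-length reads of Gm26202 and Gm23301 also have. They are printed 5′ to 3′ as DNA letters from the deposited reads, with the C box core TGATGA and the D box core CTGA in capitals. Only the CTGA nearest the 3′ end is in capitals. All 3 sequences also hold CTGA further inside, left in lower case, unlike the SNORD58 copies with 1 CTGA each.
SNORD41: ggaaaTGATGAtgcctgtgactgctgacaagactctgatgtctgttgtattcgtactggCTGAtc
SNORD18: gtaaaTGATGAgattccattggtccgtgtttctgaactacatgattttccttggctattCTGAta
SNORD66: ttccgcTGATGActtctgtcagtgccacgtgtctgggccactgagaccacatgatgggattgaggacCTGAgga
The SNORD41 form (19164 reads) covers bases 3 to 67 of the 70-nt Gm25506 (chromosome 8, plus strand, 85050207 to 85050276). The SNORD18 form (22089 reads) covers bases 2 to 66 of the 68-nt Gm23344 (chromosome 9, plus strand, 64175048 to 64175115). The SNORD66 form (10342 reads) covers bases 1 to 74 of the 75-nt Snord66 (chromosome 16, plus strand, 20684239 to 20684313). They end 2, 2 and 3 bases after the D box.

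A dominant start, or a dominant end inside the gene, was also seen in other entries, but none exceeded Gm26202 in both. Among 32 other Rfam snoRNA entries with at least 1000 mouse reads, the most frequent start held 18.3% to 97.0% of reads and was above the 94.98% of Gm26202 in 2, SNORD52 and SNORD82. The most frequent end held 16.4% to 99.5% and was above the 98.4% of Gm26202 in 1, SNORD93, which ended at base 28 of the 71-nt Mir3096. The most frequent start of SNORD93 held only 45.6% of its reads, and the most frequent end of SNORD52 held 63.3%. SNORD82 ended most often at base 67 of 70, near full length. In 7 entries over 90% of reads were 5′ parts, compared with 98.8% in Gm26202: SNORD57, SNORD97, SNORD93, SNORD88, SNORD10, SNORD26 and SNORD60. Their most frequent end held 16.4% of reads in SNORD10, 26.5% in SNORD26, 49.2% in SNORD60 and 74.4% to 99.5% in the others. SNORD97 and SNORD10 were placed on genes of 168 and 144 nt. The longest listed mouse read has 96 nt, so no listed read could span these genes. SNORD57, placed on the 72-nt Snord57, ended at base 29 in 74.4% of reads, within a few bases after an internal CTGA. The most frequent ends of SNORD52 and SNORD93 also lay after a CTGA. Those of SNORD97, SNORD88, SNORD10, SNORD26 and SNORD60 did not.

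**Figure D5:**
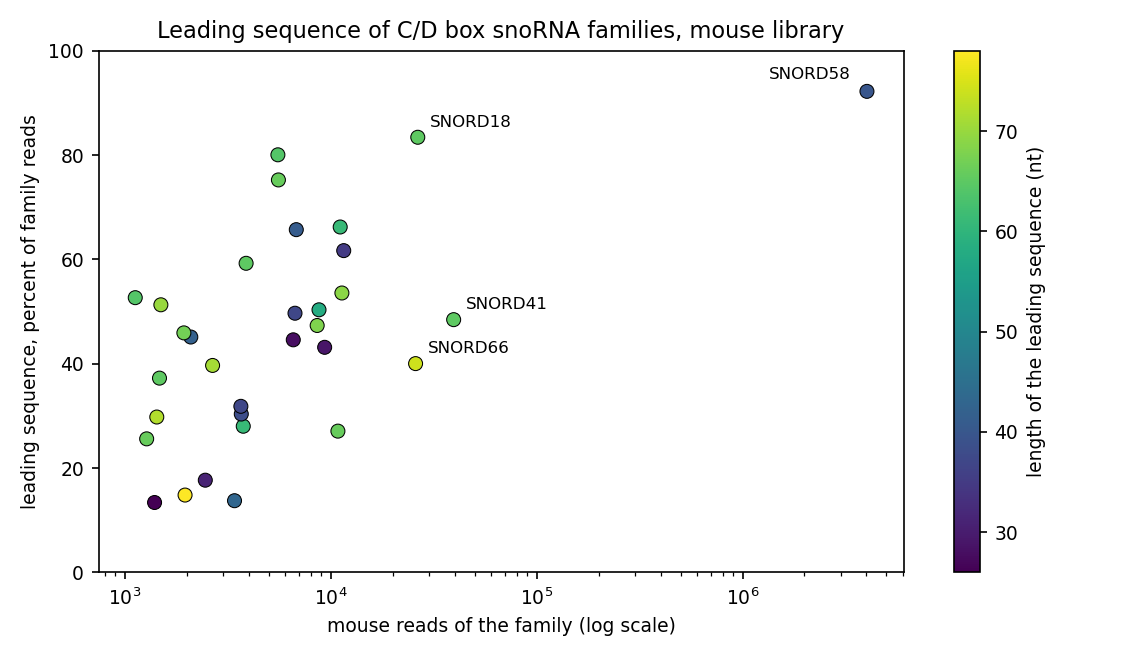
Leading sequence as percent of family reads against the family's mouse reads (log scale) for the 32 Rfam SNORD families with at least 1000 mouse reads, coloured by the length of the leading sequence. SNORD58 lies at 4021449 reads and 92.2%, and the next 3 families, SNORD41, SNORD18 and SNORD66, lie at 40.03% to 83.4%.

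No rat read was listed under SNORD58, which by counting alone allows up to 3 listed reads, or 0.205 listed reads-per-million (RPM). It is no limit on rat SNORD58 RNA, because whether rat reads could match a SNORD58 entry was not tested. SNORD41, SNORD18 and SNORD66, the next families in mouse, also had 0 rat reads. Sequence numbers, which follow the counts, showed gaps among the first 10, at numbers 3, 6 and 10 in rat and at numbers 2, 3, 8 and 9 in mouse, whose letters were not analysed here. Rat number 3 had between 510984 and 2086973 reads, 3.49% to 14.2% of the listed total, number 6 between 387063 and 496275, and number 10 between 218838 and 285442. In mouse, numbers 2 and 3 had 509872 to 3708397 reads each, and numbers 8 and 9 had 342622 to 426480 each.

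A few short rat reads listed under other entries resembled the mouse copies, and their gene of origin was not tested. Of the rat sequences of any entry, 10 could be placed on a mouse copy with at most 2 mismatches, with 38 reads, and all 10 were sense. None was placed in antisense, and no mouse read under another entry was placed in either direction. In rat 6 of the 10 sequences, with 33 of the 38 reads, began at base 1, and 1 lay in the last bases. The most abundant was an 18-nt sequence with 15 reads, identical to bases 1 to 18 of Gm26202 and listed under an mRNA with 2 mismatches. Next came an 18-nt sequence with 8 reads under a piRNA record, 1 mismatch from bases 1 to 18 of Gm23301. Of the sequences with 4 reads each, one was identical to bases 1 to 19 of Gm26202 and one was 1 mismatch from bases 1 to 23 of Gm23301. No rat read shared a 20-nt word with a mouse copy.

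These short 5′ forms can be set beside those of mouse. Exact reads of bases 1 to 18 of Gm26202 numbered 15 in rat (1.02 RPM) and 4 in mouse (0.340 RPM), and those of bases 1 to 19 numbered 4 (0.273 RPM) and 0. Both were higher in the rat library, but they were the only exact forms of this kind with rat reads. Mouse alone had reads of bases 1 to 21, 22 and 23 of Gm26202 (2, 2 and 1). The same held for bases 1 to 18 and 1 to 23 of Snord58b (4 and 1). Reads of 18 to 23 nt that begin at base 1 to 4 of any copy came to 36 in rat, 2.46 RPM (1.72 to 3.40), and to 28 in mouse, 2.38 RPM (1.58 to 3.44). The pooled intervals overlapped. This window has the lengths and starts of the rat 5′ sequences themselves, so it keeps all of those and drops longer mouse reads. The closeness of the pooled values therefore carries no comparison of the species. The 40-nt form had 3708397 mouse reads and no listed rat read. A rat sequence was listed only where an entry lay within 2 mismatches, and all but 1 of the 10 rat sequences carried 1 or 2 mismatches to the listed entry. Longer rat forms with no such entry would not appear in the table.

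Fragments of the host mRNA and of the mRNAs for the particle proteins were few. Rpl17 had 116 mouse reads under mRNA entries in 48 distinct sequences. Nop56 had 154 and Nop58, its partner in the core of the particle, had 111. Fibrillarin (Fbl) had 52 and Snu13, which binds the C and D boxes first, had 42. Each of these 5 mRNAs stood far below the 881 reads of Snord58b, the least read snoRNA copy in the introns of Rpl17.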

How the data were processed

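The deposited tables hold whole read counts per distinct sequence, unnormalised, each with a matched miRBase, Rfam or GenBank entry and at most 2 mismatches, per the file headers. Bowtie 0.12.7 and the builds mm9 and rn5 are named, with no role, in the submitters' processing notes. Adapter trimming is not given in the sources used here. Minus-strand rows are printed as the reverse complement and were turned: as printed, 78 mouse and 84 rat rows repeated a sequence, and 0 did so after turning. A closing row holding only the mouse total was left out.

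Reads of the 3 SNORD58 entries were placed without gaps on GENCODE vM21 snoRNA transcripts (GRCm38, not the mm9 of the notes), and the placement was checked on simulated reads. Bases are counted from 1 at the 5′ end. SNORD58 letters are not printed here. Sense reads under mRNA entries were counted for a gene when the whole read occurred without mismatch in its coding transcripts. Other snoRNA entries were placed on the GENCODE gene that holds their leading sequence, and at least 80% of reads had to be placed. Intervals are exact Clopper-Pearson at 95%, ratios use the exact conditional binomial, and a count of 0 allows 3. PCR reads without molecular identifiers are not independent molecules, so intervals cover counting error only. Python 3.11.15, pandas 2.3.3, numpy 2.4.6 and scipy 1.17.1 were used.

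The family, lists and tests were chosen with earlier results of these data known. Forms named were the 10 most abundant, the leading form of each start or end with at least 0.1% of reads, the 5 leading substitutions, the 3 leading rat sequences and the 3 next families. Other forms, substitutions, starts and entries named were chosen after their values were seen. Alternatives changed the denominator, mismatches, counting unit, word length and family minimum.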

Additional observations from a re-analysis of the deposited data

How the results depend on the processing

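The SNORD58 share of 34.2% of listed mouse reads was 36.65% among listed reads of 18 to 45 nt, 15.9% to 22.0% over all numbered reads (added after the data were seen), 33.8% with exact reads and 0.212% among distinct sequences. The 94.97% of reads starting at base 1 was 35.3% without the most abundant sequence, 72.2% over distinct sequences and 99.9% within 1 base. The 98.2% ending at base 40 was 76.7% without the most abundant sequence, 43.5% over distinct sequences, 98.21% with exact reads and 98.3% within 1 base. Rat reads related to SNORD58 numbered 0 by a 20-nt word, 19 by a 16-nt word and 38 by whole reads with at most 2 mismatches, a search added after the data were seen. The median leading share of the other families was 31.8% with a minimum of 100 reads and 53.6% with 10000, and SNORD58 lay above every family at each. The substitution rate was the same with forms under any entry, and the 24-nt word gave 0 as well. A minimum of 10 reads per substituted form removed none, so it tests nothing. Depth limits the values of Snord58b most, with 881 reads. No paired analysis was possible because there is 1 library per species.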

Other observations

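Reads from base 1 to base 40 can be sorted by the 3 bases that tell Gm26202 from Gm23301. With no other difference, 39 reads carried all 3 bases of Gm23301. A further 23 reads carried the bases of Gm23301 at positions 1 and 5 and that of Gm26202 at position 36. Of the 517 forms with 2 substitutions listed under Gm26202 over the same bases, none had more than 13 reads, and the median was 1. The origin of the mixed form was not tested.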
